A study of Homo sapiens with 6 samples.

Results

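The 10 genes described here encode proteins that recognise the branch point and the 3′ splice site of an intron, together with subunits of the U2 small nuclear ribonucleoprotein (snRNP) that joins them there. They are SF1, U2AF2, U2AF1, U2AF1L4, PUF60, SF3A1, SF3A3, SF3B1, SF3B2 and SF3B4. Members were taken by gene name from GENCODE release 44, which assigns 145 of the quantified transcripts to them. The series holds 62252 annotated genes in all. The choice of genes used no measured value, but it was made with earlier results of these data known.

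The study asked how loss of PCBP1, which is both a C-rich RNA binder and a cytosolic iron chaperone, alters the transcriptome. Poly-A RNA was sequenced from K562, an established erythroleukemia cell line, in 2 groups of 3 libraries. All cells received lentivirus carrying the pLKO.1 vector, with a short hairpin against luciferase in the control group (shCtrl) and against PCBP1 in the knockdown group (shPCBP1). Polybrene at 8 µg/mL was present during transduction, and 4 days of selection in 3 µg/mL puromycin followed in both groups. A single hairpin against PCBP1 was used, so an effect of this hairpin and an effect of losing PCBP1 cannot be told apart. The labels do not say whether replicates were separate cultures, so p-values measure only the spread between these libraries. In bulk RNA, fewer cells with a transcript and less of it per cell cannot be told apart.

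Splicing factor 1, encoded by SF1, binds the branch point sequence early in spliceosome assembly. Next to it, the large U2AF subunit (U2AF2) binds the polypyrimidine tract and the small subunit (U2AF1) reads the AG at the end of the intron. PUF60 is a U2AF2-like protein of the same tract, and U2AF1L4 is a paralog of U2AF1. The U2 snRNP then replaces SF1 at the branch point, held there by its SF3A and SF3B subcomplexes, of which SF3B1 is the subunit that clamps the branch helix.

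U2AF1 is the member whose alternative exons are best known. Its transcripts carry either of a pair of mutually exclusive exons of 67 bases, which give proteins called forms a and b, and the main transcript with both exons (form c), U2AF1-205, is annotated as a target of nonsense-mediated decay. Both exons lie on the minus strand of chromosome 21 (hg38), at chr21:43100453-43100519 for form a and chr21:43101366-43101432 for form b. Their sequences are printed because the share of the forms turns on telling these exons apart, and capitals mark the 23 positions at which they differ.
U2AF1 exon of form a: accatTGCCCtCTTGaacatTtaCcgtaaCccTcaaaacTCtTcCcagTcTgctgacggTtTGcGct
U2AF1 exon of form b: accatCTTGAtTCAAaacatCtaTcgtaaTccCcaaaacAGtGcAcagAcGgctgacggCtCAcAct

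The exons were identical at 65.7% of positions, so reads that cover them can be told apart. The introns before them differ more in base composition. The last 30 bases before each exon are printed in the sense of the RNA, with runs of 3 or more C in capitals, because PCBP1 is known to bind C-rich RNA. They lie at chr21:43100520-43100549 and chr21:43101433-43101462. Another stretch stands before an exon of 205 bases in SF1 that is described further on and lies at chr11:64766156-64766185, also on the minus strand.
Before the U2AF1 exon of form a: aatataaagttgttgcgttttgtatttcag
Before the U2AF1 exon of form b: attCCCCtttttatttttttttCCCCgcag
Before the SF1 exon of 205 bases: gtgtgaccttgggcttctttaccaCCCCag

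Upstream of the form b exon, 83.3% of the 30 bases were C or T, against 53.3% before the form a exon and 63.3% before the SF1 exon. The motif CCC, searched in the sense of the RNA only and with longer runs counted once, was found before the form b exon and the SF1 exon but not before the form a exon. Of 8288 distinct cassette exons measured in these data, 35.1% held CCC in the same window, as did 4 of the 11 cassette exons of the members. Over the last 50 bases, C made up 12% before form a, 28% before form b and 40% before the SF1 exon, beside a median of 22% over the 8288 exons (quartiles 14% and 30%). These are descriptions of sequence, and binding was not measured here.

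Knockdown was checked first. In normalized counts (estimated counts divided by the library's size factor), PCBP1 was at 40566, 38409 and 37799 in shCtrl. The shPCBP1 libraries held 6625, 7277 and 7221, or 18.1% of the control mean (log2 fold change -2.47, SE 0.0439). Libraries held between 67066747 and 140522444 estimated counts, and the shPCBP1 libraries lay in the lower part of this range. The 5 erythroid markers GATA1, TAL1, KLF1, HBG1 and HBZ were all expressed, with summed levels of 8164 to 9724 TPM in shCtrl and 9474 to 9943 TPM in shPCBP1. Of 11 markers of other cell types, 6 reached 1 TPM, summing to 479 to 493 TPM in shCtrl and 447 to 475 TPM in shPCBP1, while CD3E, CD14, MS4A1, PDGFRB and ALB stayed under 1 TPM in every library. In the test used for the members, the erythroid genes TAL1 (log2 fold change 0.19, DESeq2 adjusted p 2.00e-05) and HBG1 (0.16, DESeq2 adjusted p 0.00356) were higher in shPCBP1. GATA1 (-0.07, DESeq2 adjusted p 0.119), KLF1 (0.07, DESeq2 adjusted p 0.338) and HBZ (0.28, DESeq2 adjusted p 0.387) did not pass. The epithelial marker EPCAM (-0.19, DESeq2 adjusted p 0.0349) and the fibroblast marker COL1A1 (-0.31, DESeq2 adjusted p 0.0179) were lower. The other epithelial marker, KRT18, did not pass (-0.008, DESeq2 adjusted p 0.895), nor did any further marker. The part of these markers in the results below was not tested.

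At the gene level, 6 of the 10 members were higher in shPCBP1 and none was lower. U2AF2 and SF3B4 rose most, SF3A1 rose by an intermediate amount, and SF1, PUF60 and SF3B2 rose by smaller steps. U2AF1, U2AF1L4, SF3A3 and SF3B1 did not pass the test. The test was DESeq2's Wald test across all genes, and a gene passed at a Benjamini-Hochberg adjusted p under 0.05. Over all 17095 genes with an adjusted p, 31.2% passed, 17.7% being higher and 13.5% lower. All members but U2AF1L4, with a mean of 601, averaged at least 1000 normalized counts. Among the 9369 genes at that level 44.9% passed, 2691 being higher and 1516 lower. The members' median log2 fold change was 0.15, beside 0.0019 over all genes tested and 0.04 over those averaging at least 1000. No member passed the study's further threshold of an absolute log2 fold change over 1. Of all genes, 1.37% passed it with a mean normalized count over 10. The same 6 genes passed with each library left out and under every other setting tried. In the DESeq2 fit that allowed for transcript length, SF1, SF3B2 and PUF60 came nearer the cutoff (DESeq2 adjusted p 0.0480, 0.0430 and 0.0260).

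**Figure D1:**
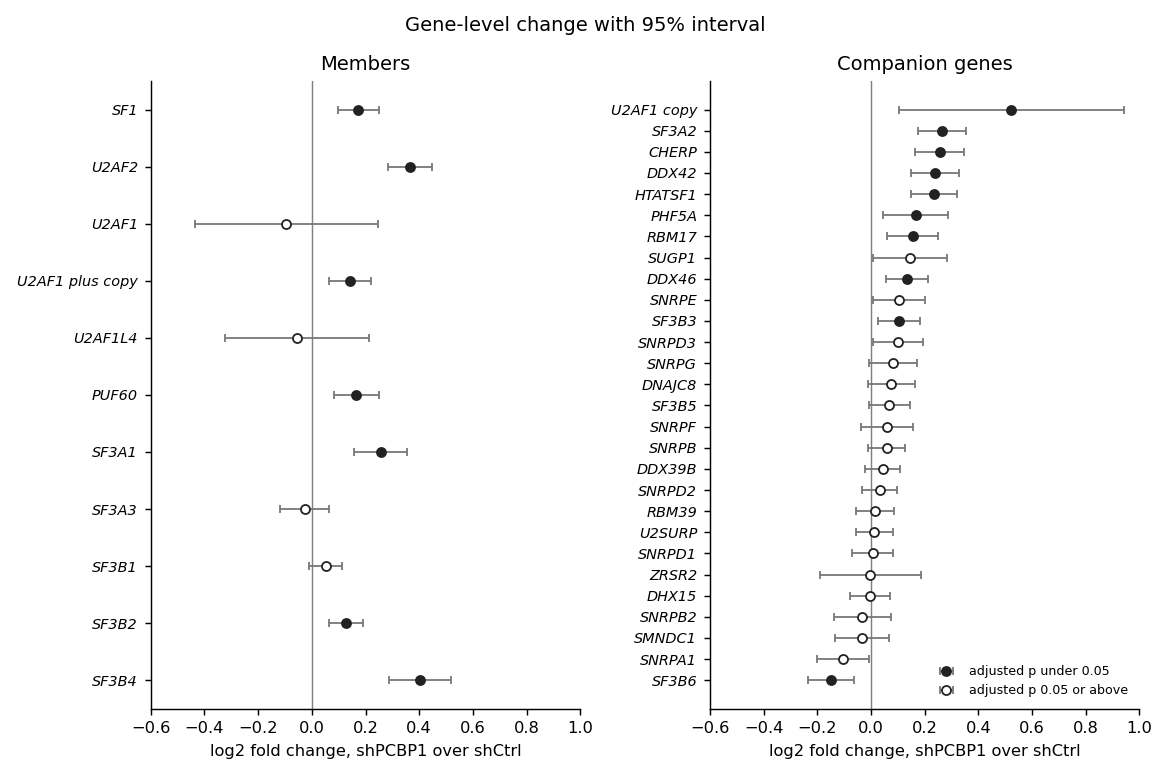
Log2 fold change of shPCBP1 over shCtrl (x axis) with its 95% interval for the 10 members and for U2AF1 summed with its copy (left), and for 28 companion genes (right); filled points passed at an adjusted p under 0.05. Filled member points all lie above 0, between 0.13 and 0.40.

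U2AF2 (chr19:55654146-55674716, plus strand) is the subunit that grips the polypyrimidine tract. Its normalized counts were 28107, 25891 and 27346 in shCtrl and 36705, 34553 and 33622 in shPCBP1. Every knockdown library lay above every control library, and the mean was 129% of control. This amounted to 0.37 on the log2 scale (SE 0.042, DESeq2 adjusted p 1.84e-16).

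SF3B4 (chr1:149923317-149927803, minus strand) encodes an SF3B subunit that contacts the pre-mRNA near the branch point. It had 8704, 7612 and 9311 normalized counts in shCtrl and 11500, 11291 and 11094 in shPCBP1. The groups did not overlap, and the 3 knockdown libraries lay closer together than the 3 controls. Its log2 fold change of 0.40 was the highest of the members (SE 0.0593, DESeq2 adjusted p 3.59e-10). A processed pseudogene, SF3B4P1, shares 20.7% of the 31-base words of the main SF3B4 transcript, but the counts assigned to it were at most 0.00842% of those of SF3B4. The 3 other genes with at least 100 normalized counts whose profile over the 6 libraries was nearest to that of SF3B4 were UTP25, FAM86C2P and LINC01128, with root mean square differences of 0.0208, 0.0216 and 0.0263 on the log2 scale.

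SF3A1 (chr22:30331988-30356919, minus strand), the largest SF3A subunit, had 17367, 16604 and 18556 normalized counts in shCtrl and 22220, 20975 and 19539 in shPCBP1. All knockdown values were above all control values, although the nearest libraries of the groups were close. The log2 fold change was 0.26 (SE 0.0505, DESeq2 adjusted p 4.95e-06).

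SF1 (chr11:64764606-64778786, minus strand), the branch point protein, had 29077, 27158 and 28346 normalized counts in shCtrl and 33121, 31009 and 31221 in shPCBP1. The groups did not overlap, and the knockdown mean was 113% of control. Its log2 fold change was 0.17 (SE 0.039, DESeq2 adjusted p 8.38e-05).

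PUF60 (chr8:143816344-143830709, minus strand) had 14773, 13505 and 13754 normalized counts in shCtrl and 15961, 15697 and 15502 in shPCBP1. These groups were also separate, by 0.17 on the log2 scale (SE 0.042, DESeq2 adjusted p 0.000563). SF3B2 (chr11:66050729-66069308, plus strand), the SF3B subunit that pairs with SF3B4, had 27233, 27018 and 27328 in shCtrl and 30306, 29521 and 29204 in shPCBP1. The control libraries were nearly equal and lay below all knockdown libraries, and the log2 fold change was 0.13 (SE 0.0321, DESeq2 adjusted p 0.000595).

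SF3B1 (chr2:197388515-197435079, minus strand) had 27586, 27244 and 27820 normalized counts in shCtrl and 28708, 28621 and 28292 in shPCBP1. The groups did not overlap, but the difference was small and did not pass (log2 fold change 0.05, 95% interval -0.01 to 0.11, DESeq2 adjusted p 0.222). In TPM its libraries did overlap, at 88.7, 84.2 and 79.3 in shCtrl and 72.2, 83.2 and 87.4 in shPCBP1, and a fit that allowed for transcript length gave -0.04. Groups of normalized counts without overlap were common in these data, at 7 of the 10 members and 44.2% of all genes tested. Of the 9369 genes averaging at least 1000 normalized counts, 5259 had such groups.

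SF3A3 (chr1:37956975-37990075, minus strand), another SF3A subunit, had 20326, 19052 and 20443 normalized counts in shCtrl and 20681, 19610 and 18405 in shPCBP1. The groups overlapped, and the interval of the log2 fold change ran from -0.12 to 0.06 (estimate -0.03, DESeq2 adjusted p 0.717). This interval lies below the estimate for SF3A1, its partner in the same subcomplex, but the difference between these genes was not tested.

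U2AF1L4 (chr19:35742464-35745445, minus strand) was the scarcest member, with 676, 644 and 517 normalized counts in shCtrl and 636, 538 and 592 in shPCBP1. The groups overlapped and the interval was wide, from -0.32 to 0.21 (estimate -0.05, DESeq2 adjusted p 0.818). A readthrough gene on the same strand, ENSG00000267120, shares 55.6% of the 31-base words of the transcript U2AF1L4-202. That transcript held too little of U2AF1L4 to enter the transcript test described below. The overlap with the more abundant U2AF1L4 transcripts was not measured. The readthrough gene was assigned counts equal to between 9.66% and 24.3% of those of U2AF1L4, so the values of U2AF1L4 are uncertain.

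U2AF1 (chr21:43092956-43107570, minus strand) was the least settled member. Under its own identifier, ENSG00000160201, it had 15734, 13122 and 14115 normalized counts in shCtrl and 16067, 13776 and 10398 in shPCBP1. The highest and the lowest of the 6 values were both knockdown libraries. The log2 fold change was -0.09 with an interval of -0.44 to 0.25 (SE 0.174, DESeq2 adjusted p 0.745), and without shPCBP1 replicate 3 it was 0.06.

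Many reads of the same sequence were assigned to a near-identical copy of U2AF1. It is ENSG00000275895 (chr21:6484623-6499248), to which GENCODE release 44 gives the gene type artifact. Its transcript and U2AF1-201, the main U2AF1 transcript, are 945 bases long each and differ by 1 substitution, A12C, with U2AF1-201 as the reference and positions counted from its 5′ end. Of the 31-base words of U2AF1-201, 98.7% occur in the copy, so nearly all reads of this transcript could come from either, and their split between the identifiers is an estimate by Salmon.

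Reads were divided between both identifiers in different proportions from library to library. The copy took 29.8%, 38.8% and 31.5% of the reads of both in shCtrl and 33.9%, 42.0% and 54.9% in shPCBP1. It had 6676, 8318 and 6506 normalized counts in shCtrl and 8247, 9993 and 12662 in shPCBP1. These overlap, with shCtrl replicate 2 above shPCBP1 replicate 1, and the rise of 0.52 on the log2 scale (SE 0.214, DESeq2 adjusted p 0.0469) lost its call under 6 of the 8 other settings. Without shCtrl replicate 1 or 3, or shPCBP1 replicate 2 or 3, its adjusted p from DESeq2 was between 0.129 and 0.178.

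Summing the identifiers removed most of the spread. U2AF1 plus its copy had 22410, 21440 and 20621 normalized counts in shCtrl and 24312, 23767 and 23059 in shPCBP1. Every knockdown library was then above every control library, a difference of 0.14 on the log2 scale (SE 0.0399, interval 0.06 to 0.22, DESeq2 adjusted p 0.00211). With this sum in place of U2AF1, 7 of the 10 members passed.

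**Figure D2:**
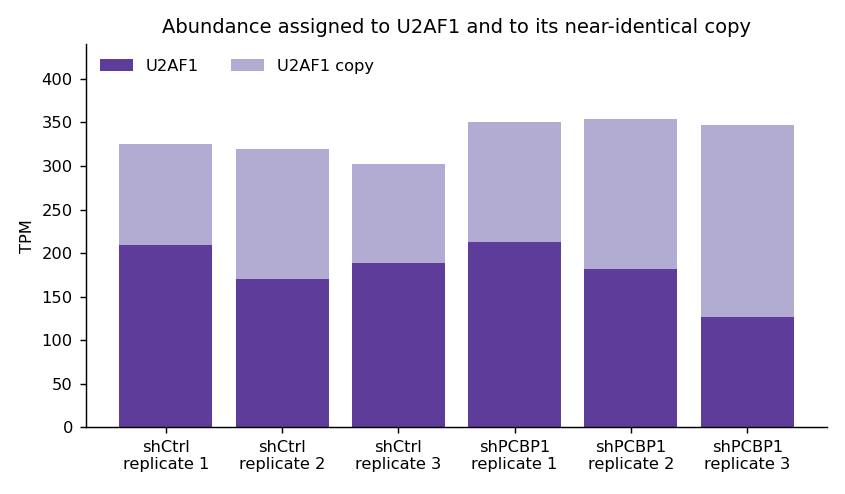
TPM assigned by Salmon to U2AF1 (dark) and to its near-identical copy (light) in each of the 6 libraries (x axis), stacked. The sum is 303 to 326 TPM in shCtrl and 348 to 354 TPM in shPCBP1, while the part under the U2AF1 identifier ranges from 126 to 212 TPM.

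Levels can be compared between genes in TPM, which scales counts by transcript length. In shCtrl the mean was 316 ± 11.9 TPM (SD, n = 3) for U2AF1 with its copy, 164 ± 9.02 for SF1, 159 ± 2.87 for U2AF2, 129 ± 3.08 for SF3B2, 109 ± 3.04 for SF3A3, 108 ± 5.00 for PUF60, 84.0 ± 4.70 for SF3B1, 78.7 ± 6.35 for SF3B4, 61.6 ± 3.60 for SF3A1 and 9.36 ± 1.54 for U2AF1L4. Libraries overlapped between the neighbours SF1 and U2AF2, SF3A3 and PUF60, and SF3B1 and SF3B4, so their order is not settled by these samples. Under its own identifier U2AF1 was at 190 ± 19.6 TPM and overlapped SF1. In shPCBP1, U2AF2 stood at 205 ± 4.85 TPM, above SF1 at 178 ± 3.81, and SF3B4 at 102 ± 0.672, above SF3B1 at 80.9 ± 7.87. The small U2AF subunit with its copy was at a higher TPM than the large one in both groups.

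**Figure D3:**
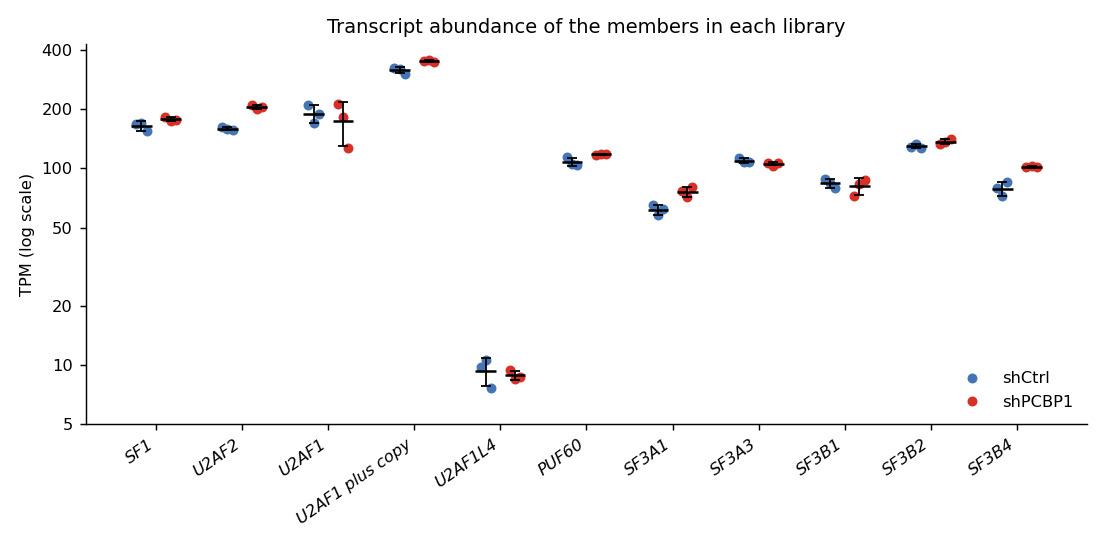
TPM on a log scale (y axis) of each member, and of U2AF1 summed with its copy, in the 3 shCtrl (blue) and 3 shPCBP1 (red) libraries; bars are mean and SD. U2AF1L4 lies between 7.66 and 10.6 TPM and the other 9 members between 57.7 and 212 TPM, and the sum of U2AF1 and its copy reaches 354 TPM.

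The fuller set of U2 and 3′ splice-site genes was followed in 28 companions that are not members. Of these, 10 passed, 9 higher and 1 lower (35.7%), with a median log2 fold change of 0.07. The 9 include the U2AF1 copy, whose reads are hardly separable from those of the member U2AF1. All 28 averaged over 1000 normalized counts, a level at which 44.9% of genes passed, beside 31.2% of all genes. The only other SF3A subunit, SF3A2, rose by 0.26 (SE 0.0461, DESeq2 adjusted p 1.54e-07), with 10861, 10539 and 11833 normalized counts in shCtrl and 13338, 13260 and 13355 in shPCBP1. CHERP, a U2-associated protein, rose by 0.26 (SE 0.0465, DESeq2 adjusted p 5.64e-07). Among 10 U2-associated genes 5 passed and all 5 were higher, and among 4 further SF3B subunits 2 were higher and 1 lower. That one was SF3B6, the subunit that touches the branch point adenosine, with 8288, 8151 and 8105 normalized counts in shCtrl and 7265, 7685 and 7201 in shPCBP1 (log2 fold change -0.15, SE 0.0441, DESeq2 adjusted p 0.00421). None of the 9 genes of the U2 snRNP core (Sm proteins and the U2-specific proteins) passed, with log2 fold changes from -0.11 to 0.11. Of the 4 U2AF relatives and partners only the U2AF1 copy did. Between 7 and 11 companions passed under other settings or with 1 library left out.

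How the RNA of each gene was divided between its transcripts was examined next. Of the 145 transcripts of the members, 38 held at least 5% of their gene in either group and were tested, and 23 held at least 10%. The test was limma on the log2 ratio of a transcript's TPM to that of the rest of its gene, over 44312 transcripts. None of the 38 passed at an adjusted p under 0.05 with a difference over 5 percentage points, where 0.765% of all transcripts did. At an unadjusted p under 0.05 there were 13 (14.3% of all transcripts), and for 13 the libraries of the groups did not overlap (21.2% of all). The transcript test called no member under the other pseudocounts and filters, with counts, with the replicate number as a block or with any library left out.

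Among the 23 transcripts that held at least 10%, PUF60-204 and PUF60-209 had the lowest adjusted p-values. PUF60-204 took 15.9%, 16.4% and 15.2% of PUF60 TPM in shCtrl and 26.8%, 22.4% and 29.0% in shPCBP1 (limma adjusted p 0.0743). PUF60-209 took 11.3%, 8.71% and 10.4% against 14.9%, 17.8% and 16.5% (limma adjusted p 0.0925). Both had knockdown shares above every control share without passing. PUF60-202 went the other way, from 32.6% ± 4.46 to 25.5% ± 0.574 (SD, n = 3), and PUF60-208 from 23.1% ± 5.03 to 18.1% ± 3.11, at limma adjusted p-values of 0.263 and 0.498.

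These 4 transcripts differ by a pair of exons. PUF60-208 and PUF60-202 hold a coding exon of 87 bases (chr8:143824313-143824399, minus strand) that PUF60-204 and PUF60-209 skip, and PUF60-208 and PUF60-204 hold an exon of 51 bases (chr8:143820666-143820716) that the other two skip. Their coding lengths are 1677, 1626, 1590 and 1539 bases for PUF60-208, PUF60-202, PUF60-204 and PUF60-209, so each exon keeps the reading frame.

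**Figure D4:**
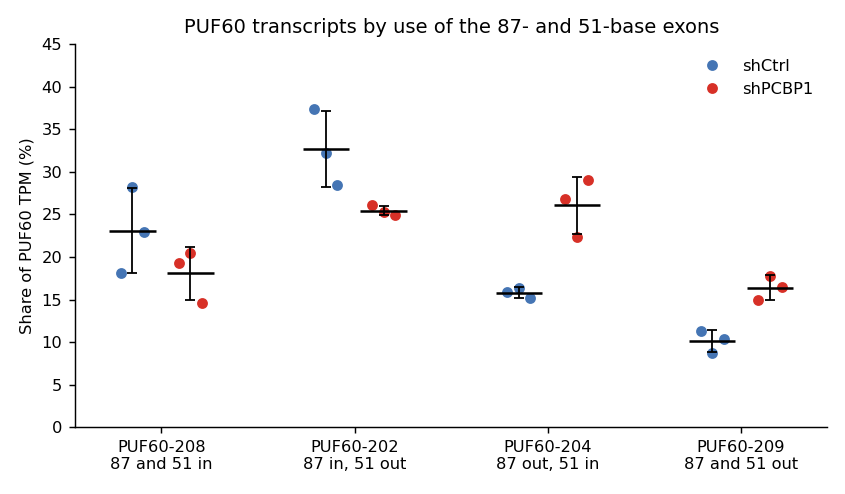
Share of PUF60 TPM (y axis) in the 4 main transcripts, ordered by whether they hold the exons of 87 and 51 bases, in shCtrl (blue) and shPCBP1 (red) libraries; bars are mean and SD of 3 libraries. Shares of the transcripts that skip the 87-base exon were higher in all shPCBP1 libraries than in any shCtrl library.

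Grouping transcripts by exon gave the same comparison as inclusion, the share of TPM with the exon among transcripts that hold or skip it between the same neighbours. Inclusion of the 87-base exon was 68.3%, 71.1% and 68.0% in shCtrl and 53.1%, 54.4% and 47.7% in shPCBP1. The groups were far apart relative to their spread, and the means were 69.1% ± 1.75 and 51.7% ± 3.53 (SD, n = 3). The difference of -17.4 points had an exact permutation p of 0.1, two-sided, which is the smallest that 3 against 3 libraries allow. A limma fit over all 8637 annotated cassette exon events, added after the data were seen, gave it an adjusted p of 0.0444. The call held at a pseudocount of 1 TPM (limma adjusted p 0.0200). It was lost at 0.01 TPM (limma adjusted p 0.0525) and with estimated counts (limma adjusted p 0.0530). The call was also lost with any 1 library left out, where the limma adjusted p was 0.108 to 0.137 and the difference -18.7 to -15.4 points. With the replicate number as a block it was lost too (limma adjusted p 0.150). In the main fit it was the only one of the 11 member events called, where 1.63% of all events were.

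The 51-base exon of PUF60 was at 49.4% ± 2.22 in shCtrl and 52.0% ± 2.37 in shPCBP1 and overlapped (exact permutation p 0.3). An 84-base version of the first exon, which starts 3 bases later on the transcript and ends at the same base, was included at 14.4%, 14.0% and 15.9% in shCtrl and 9.05%, 6.14% and 5.85% in shPCBP1 against the same skipping transcripts. It did not pass (limma adjusted p 0.0627), though it did at a pseudocount of 1 TPM (limma adjusted p 0.0273), and it is not independent of the 87-base result, since both use the same skipping transcripts. The SF1 exon of 205 bases (chr11:64765951-64766155), before which the CCCC run printed above stands, was included at 8.56%, 12.5% and 12.2% in shCtrl and 6.99%, 6.35% and 6.28% in shPCBP1. The groups did not overlap, but the difference of -4.53 points did not pass (exact permutation p 0.1, limma adjusted p 0.140). The bases before this SF1 exon were printed because its groups did not overlap. No CCC was found in the 30 bases before the 87-base or the 84-base PUF60 exon. Whether C runs bear on inclusion was not tested. In all, 3 of the 11 member events had groups without overlap, beside 24.9% of all events.

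**Figure D5:**
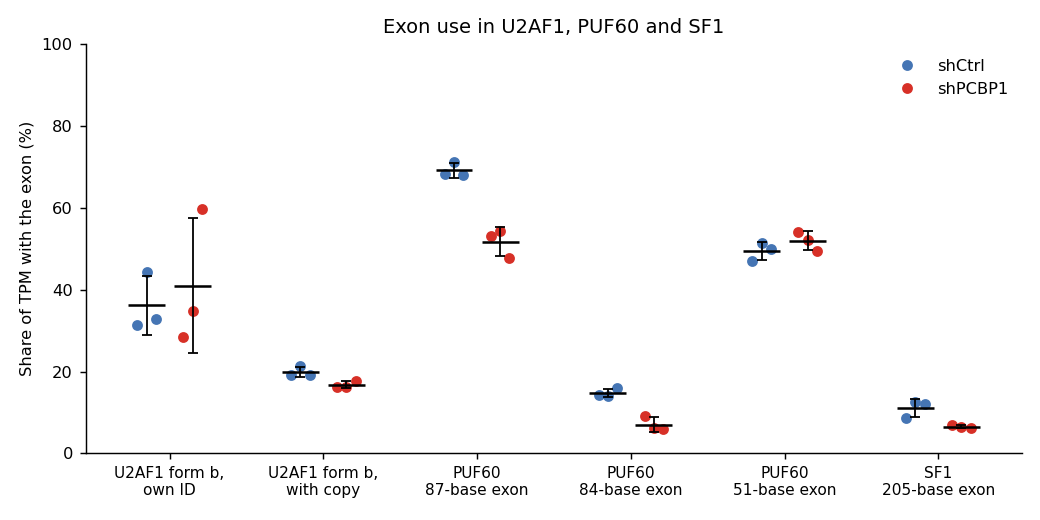
Share of TPM with the exon (y axis, percent) in each library for U2AF1 form b, counted under the U2AF1 identifier alone and with the copy, and for 3 PUF60 exons and 1 SF1 exon; bars are mean and SD of 3 libraries. Groups are apart for the 87-base and 84-base PUF60 exons, the SF1 exon and U2AF1 form b with the copy, and overlap for the others.

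The U2AF1 forms depended on how the copy was counted. Under the U2AF1 identifier, form b made up 31.3%, 44.4% and 32.7% of forms a and b in shCtrl and 28.4%, 34.8% and 59.6% in shPCBP1. The groups overlapped, and the difference of 4.80 points (exact permutation p 0.8) changed sign without shPCBP1 replicate 3, the library in which the copy took most reads. The copy carries the form a exon, so reads assigned to it leave form a. With the copy counted as form a, the share of form b was 19.1%, 21.4% and 19.1% in shCtrl and 16.2%, 16.3% and 17.8% in shPCBP1. These groups did not overlap, and form b was then lower by 3.11 points in shPCBP1 (points difference -3.11, exact permutation p 0.1, the smallest possible).

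In TPM, form a with the copy was 240, 226 and 223 in shCtrl and 271, 270 and 259 in shPCBP1, without overlap. Form b was 56.7, 61.4 and 52.7 in shCtrl and 52.3, 52.6 and 56.0 in shPCBP1, with overlap (exact permutation p 0.2). Form c, which holds both exons, was 13.8 ± 1.86 TPM in shCtrl and 15.3 ± 2.36 in shPCBP1 and made up 4.60% and 4.56% of all forms with the copy counted. Merged with the copy before the transcript fit, U2AF1-201 held 71.3% of U2AF1 in shCtrl and 74.4% in shPCBP1 (limma adjusted p 0.420), and U2AF1-202 held 18.0% and 15.3% (limma adjusted p 0.237).

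Other members had transcripts with separate groups that did not pass the transcript test. U2AF2-201 took 42.9%, 39.2% and 40.2% of U2AF2 in shCtrl and 47.3%, 48.7% and 46.3% in shPCBP1, and U2AF2-202 took 36.0%, 35.5% and 38.1% against 31.8%, 31.3% and 30.1% (limma adjusted p 0.169 and 0.178). U2AF2-202 starts upstream of U2AF2-201, and its coding length is 1413 bases against 1425. SF1-204 went from 31.7% ± 1.42 to 27.9% ± 0.925 (SD, n = 3) and SF1-201 from 16.7% ± 1.12 to 20.8% ± 1.47 (limma adjusted p 0.298 and 0.213), with coding lengths of 1917 and 1644 bases. SF3B1-205, a short annotated fragment of 723 bases, went from 27.8% ± 2.52 to 20.5% ± 3.34 (limma adjusted p 0.255), while the full-length SF3B1-201 was at 58.0% ± 3.48 and 63.4% ± 5.92 with overlap. SF3A1-201, SF3A3-201, SF3B2-201 and SF3B4-201, the main transcripts of the other U2 subunits, held 67.7%, 82.6%, 75.5% and 99.4% of their genes in shCtrl and 64.4%, 83.3%, 76.9% and 99.4% in shPCBP1, all with overlap.

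Of the remaining transcripts that held at least 10% of a member, 4 belong to U2AF1L4. Its retained-intron transcripts U2AF1L4-218 and U2AF1L4-213 went from 19.4% ± 2.77 to 30.8% ± 6.57 and from 3.08% ± 2.70 to 11.8% ± 3.70, without overlap (limma adjusted p 0.331 and 0.301). Both were scarce, with means of 1.80 and 0.278 TPM in shCtrl and 2.71 and 1.06 TPM in shPCBP1. U2AF1L4-213 was listed at 0 in shCtrl replicate 1. U2AF1L4-201 and U2AF1L4-207 overlapped. SF1-218, SF3A1-202 and SF3A1-207 overlapped as well, and SF3A1-207 was listed at 0 in 3 of the 6 libraries. Under 10%, and chosen after its values were seen, the retained-intron transcript SF3B2-208 went from 6.75% to 3.76% of SF3B2 without overlap (limma adjusted p 0.0713).

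The share of TPM in protein-coding transcripts was compared last. Groups overlapped for all 10 members, whereas 19.9% of 9453 genes had groups that did not overlap. Transcripts annotated for nonsense-mediated decay made up 8.05% ± 0.460 of U2AF2 in shCtrl and 6.65% ± 0.791 in shPCBP1, and 20.1% ± 5.26 and 11.9% ± 2.47 of U2AF1L4, both without overlap (exact permutation p 0.1 each). Retained-intron transcripts of PUF60 were at 3.73% ± 0.801 and 1.94% ± 0.192, also without overlap (exact permutation p 0.1). These were 2 of 7 members with annotated decay transcripts and 1 of 8 with retained-intron transcripts, beside 15.4% of 5411 genes and 20.3% of 6844 genes.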

How the data were processed

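Poly-A RNA from 3 shCtrl and 3 shPCBP1 libraries of K562 cells was sequenced by the study. Per the labels, the authors quantified reads with Salmon (1.10.2) on hg38. The deposited estimated counts per transcript were not normalized, and the deposited TPM values were scaled by Salmon on effective length. The annotation behind the index was not given in the sources used here. Of 252045 transcripts, 251612 matched GENCODE release 44, and the rest, 0.136% to 0.147% of counts, were left out.

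Gene totals of the estimated counts were rounded, and those reaching 10 over the 6 libraries were tested in DESeq2 (1.42.0, Wald test, group as the only term). The study's methods name Salmon, DESeq2's Wald test and a read count threshold over 10 for significant genes. They do not name a filter before the test, the rounding or the model terms. Transcript and exon shares were computed from TPM with a pseudocount of 0.1 and tested with limma (3.58.1, trend). Cassette exons needed both forms to average at least 1 TPM. No junction reads were used, and exon use therefore rests on Salmon's division of reads. Single values used an exact permutation test. Fold changes are unshrunken. Alternatives used edgeR (4.0.16), R 4.3.3 and Python 3.11.15, and the tests were tested on simulated data. There the gene test recovered 61 of 100 genes changed 1.2-fold and 100 of 100 changed 2-fold, with 30 false calls. The log-ratio test on cassette exons recovered 25 of 100 at a log2 ratio change of 1 and 65 of 100 at 2, with 8 false calls. Exons and transcripts that did not pass may therefore still have changed. The changed genes and exons of the simulation were drawn from better expressed ones, so recovery of scarce ones was not measured. Exon recovery was counted on the adjusted p alone, without the limit of 5 percentage points.

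Members, companions and named items were chosen with earlier results of these data known. The rule named all members, companions that passed with the 3 largest rises or falls, transcripts with at least 10% of their gene, and the 3 genes nearest to the member that changed most. Libraries of a group differed by more than sampling noise (chi-square per degree of freedom 6.19 to 15.1). One of the cell type markers is not reported here.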

Additional observations from a re-analysis of the deposited data

How the results depend on the processing

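The 6 members that passed were the same under edgeR, TMM factors, length offsets, other filters, the replicate block and each library left out, and the count was 6 in each and 7 with the U2AF1 copy summed. Replicate numbers did not pair the libraries (correlations of deviations 0.094, -0.020 and -0.105), and the block left 6 members and 7 companions passing. With 1 library left out, companions ranged from 7 to 11, and called member transcripts stayed at 0. Signs changed for values that did not pass. SF3B1 was -0.035 with length offsets, and U2AF1 was 0.14 with its copy. The share difference was -1.29 points for SF3B2-201 among protein-coding transcripts, and 3.08 and -2.71 points for U2AF1-201 and U2AF1-202 with the copy merged. Leaving out 1 library gave log2 fold changes of -0.24 to 0.058 for U2AF1, -0.16 to 0.024 for U2AF1L4 and -0.069 to 0.014 for SF3A3. The same gave share differences of -13.6 to 3.62 points for U2AF1-201, -3.57 to 6.30 for U2AF1-202, -0.97 to 3.86 for SF3A3-201, -0.59 to 0.17 for SF3B4-201 and -5.55 to 0.38 for SF3A1-201. Under the U2AF1 identifier, the difference in form b was -4.54 to 11.1 points with 1 library left out. With the copy counted it was -3.11 points, and -3.62 to -2.36 with 1 library left out. Members with separate protein-coding shares numbered 1 with estimated counts, 1 against decay transcripts only, and 0 to 3 with 1 library left out. The PUF60 exon of 87 bases differed by -17.4 points at a pseudocount of 0.01 TPM (limma adjusted p 0.0525), -16.7 with counts (limma adjusted p 0.0530), -17.4 with the replicate block (limma adjusted p 0.150), -17.4 at a pseudocount of 1 TPM, where the call held (limma adjusted p 0.0200), and -18.7 to -15.4 with 1 library left out. The cause of these shifts was not tested.

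Exon and transcript values have no depth of their own, since TPM keeps none, and the exact permutation test cannot go below 0.1. Counts of called cassette exons were 141, 216 at a pseudocount of 1 TPM, 97 at 0.01 TPM, 70 with counts, 0 with the block and 9 to 45 with 1 library left out. Over all genes, 5332 passed with DESeq2 and 4593 with edgeR.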
